A study of Mus musculus with 3 samples.

Results

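Genes of the lysosome were followed across 3 cell populations sorted from the mouse peritoneal cavity, each measured on 1 expression array. The set comprised every gene whose symbol begins with Atp6v and 29 genes listed by name for lysosomal hydrolases, activators, membrane proteins and sorting receptors. The Atp6v name stands for subunits of the vacuolar proton pump, except in Atp6v1fnb. That gene is named as a neighbour of Atp6v1f and is counted with the pump genes here. That gave 51 genes, of which 50 had a probe set naming them alone, out of 22180 genes measured in this way. The measured members were 22 pump genes, 18 soluble hydrolases, 3 soluble proteins without a hydrolase activity, 5 membrane proteins and 2 sorting receptors. The remaining member, Glb1, which encodes the lysosomal β-galactosidase, shared its probe set with Tmppe, and that probe set read 6.38 on the log2 scale on each array.

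The cells came from naive female BALB/c mice aged 10 to 11 weeks, with 5 animals pooled. Mast cell progenitors and mature mast cells shared a gate that was lineage negative or low, c-kit high, positive for FcεRI and T1/ST2, intermediate for CD16/32, and negative for both CD127 and CD25. The progenitors were those with integrin β7 high and side scatter low, the mature cells those with integrin β7 negative to intermediate and side scatter high. Innate lymphoid cells of type 2 were positive for CD127, CD25 and T1/ST2, negative for lineage markers, FcεRI and CD16/32, and negative or low for c-kit. RNA of 100 cells per population was amplified before hybridisation. With 1 array each, no value has an error and no difference was tested, and the number of arrays limits the precision. Levels are the deposited log2 values, fewer cells expressing a gene and less of its RNA per cell cannot be told apart, and levels of different genes are not set against each other since each comes from its own probes.

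Lysosomes are acidic compartments in which hydrolases with low pH optima break down proteins, glycans and lipids. The vacuolar proton pump acidifies them: its cytosolic V1 domain splits ATP and its membrane-bound V0 domain carries the protons. Most soluble hydrolases reach the compartment by a mannose 6-phosphate tag that the receptors M6pr and Igf2r bind. Mast cell granules are secretory lysosomes that keep an acidic interior, and lysosomal cathepsin C is known to activate the proteases stored in them.

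Of the 50 lysosomal members 26 (52%) had the same value on all 3 arrays, against 47.9% of all genes, and 3 of the 50 differed by 2-fold or more in any comparison. At 2-fold, 1.93% of all genes were higher and 0.509% lower in mature mast cells than in progenitors, 0.766% higher and 1.88% lower in progenitors than in innate lymphoid cells, and 1.34% and 1.26% between the mature and lymphoid arrays. The members' counts, 0 to 2 of 50 in each direction, are too few to be read as different from these shares. Psap was 2.91-fold higher in mature mast cells than in progenitors and 2.95-fold higher than in innate lymphoid cells. Atp6v1g1, by the probe set used, was lowest in progenitors, 5.06-fold under mature mast cells and 4.98-fold under innate lymphoid cells. Atp6v0e was highest in innate lymphoid cells, at least 4.73-fold over progenitors and at least 4.79-fold over mature mast cells. The other 47 members had measured differences under 2-fold in each comparison. A gene was counted at a log2 difference of at least 1 (2-fold) or 2 (4-fold) when the higher of its values exceeded the median of all single-gene probe sets on its array. That median was 6.32 on the progenitor array and 6.30 on both others. Counts used the measured differences. In the printed folds alone, the median took the place of a dimmer value under it, and the fold is a lower bound. A gene can thus be counted at a limit that its bound does not reach, as Atp6v1d and Atp6v0e2 are at 1.5-fold.

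The promoters of some lysosomal genes hold the CLEAR element, a site bound by TFEB and its relatives TFE3 and MITF. The promoters of 3 members described below are shown. They were picked by hand, with their levels known, from the members that hold its core or a related motif. The choice therefore shows no link between a motif and a difference. Each stretch, taken from RefSeq's GRCm38.p6, runs from 250 bases before the gene's start to 25 after it, on the gene's strand, and capitals mark matches to TCACGTGA (the core of the CLEAR element), CACGTG (the E-box, which every such core contains) or TCATGTG (the M-box), on either strand. The stretches lie at chr17:26676146-26676420 on the plus strand (Atp6v0e), chr7:142387803-142388077 on the minus strand (Ctsd) and chr7:105752211-105752485 on the minus strand (Tpp1).
Atp6v0e: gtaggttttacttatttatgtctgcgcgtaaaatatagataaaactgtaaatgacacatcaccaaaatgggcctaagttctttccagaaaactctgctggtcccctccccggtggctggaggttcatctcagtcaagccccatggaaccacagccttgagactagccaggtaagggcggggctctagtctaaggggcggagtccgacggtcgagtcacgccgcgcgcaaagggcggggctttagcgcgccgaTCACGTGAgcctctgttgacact
Ctsd: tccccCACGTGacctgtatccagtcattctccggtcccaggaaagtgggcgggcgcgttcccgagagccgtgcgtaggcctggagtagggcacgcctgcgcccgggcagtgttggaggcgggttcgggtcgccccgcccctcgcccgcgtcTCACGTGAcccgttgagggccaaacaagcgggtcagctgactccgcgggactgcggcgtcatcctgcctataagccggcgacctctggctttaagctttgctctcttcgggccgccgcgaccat
Tpp1: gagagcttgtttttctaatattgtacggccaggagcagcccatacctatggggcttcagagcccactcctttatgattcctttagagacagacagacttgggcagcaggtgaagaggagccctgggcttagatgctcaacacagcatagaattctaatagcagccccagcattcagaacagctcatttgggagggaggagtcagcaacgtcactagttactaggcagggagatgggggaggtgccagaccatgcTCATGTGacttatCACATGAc
The Atp6v0e stretch has a CLEAR core at base 253, just after the start site. The Ctsd stretch has a core at base 152 and a further E-box at base 6, and the Tpp1 stretch has M-boxes at bases 255 and 268.

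Promoter windows of 300 bases, from 250 before the start to 50 after it, were at hand for 40 of the 51 members. The CLEAR core was found in 7 of these (Atp6v0d1, Atp6v0e, Atp6v1a, Ctsa, Ctsd, Gla and Igf2r), which is 17.5%, against 1.12% of 27025 genes with such windows. The E-box was found in 13 of 40 members and 8.09% of all genes, and the M-box in 7 of 40 and 4.31%. By role, 3 of 16 pump genes and 4 of 24 other members held the CLEAR core. Neither of the 2 Psap windows held any of the 3 motifs. A match describes the letters alone, and the list was made of known lysosomal genes. Of the members with the core, Ctsa and Igf2r read the same on all arrays, while Atp6v0e, Ctsd, Atp6v0d1, Atp6v1a and Gla did not. Ctsa and Gla lay below the median on every array. A link of these motifs to the levels was not tested. Of the factors' own transcripts, Tfeb read 6.29 on each array, below the median of each, Mitf read 6.69 on each, and Tfe3 read 6.95 in progenitors and 6.91 in both other populations.

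Within the pump, the V1 domain was represented by 13 genes. Atp6v1g1, the broadly expressed form of the G subunit in the stalk that links V1 to V0, read 7.41 in progenitors, 9.76 in mature mast and 9.73 in innate lymphoid cells. It was thus low in progenitors and close on the other arrays, with log2 differences of 2.34 (mature minus progenitor, 5.06-fold) and -2.32 (progenitor minus innate lymphoid, 4.98-fold). The gene has 3 probe sets, and they disagreed. A second read 7.26, 9.29 and 9.28 in the same order, while the third read 7.37, 7.53 and 7.58, a log2 difference of 0.16 between the mast cell populations. The statement therefore rests on 2 of 3 probe sets. In progenitors other bright genes were low as well. On the mature and innate lymphoid arrays 489 genes exceeded a log2 level of 8 and agreed within 2-fold, Atp6v1g1 as the sole member, and 8.38% of them lay at least 4-fold below both in progenitors. For genes chosen likewise from the remaining pairs of arrays, 0% of 371 were that low on the mature array, and 0.746% of 402 on the innate lymphoid array. The part of this in the Atp6v1g1 value was not tested.

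The other forms of the G subunit moved little. Atp6v1g2, known from neurons, read 6.81 on each array, and Atp6v1g3, known from kidney, read 7.08 in progenitors, 6.98 in mature mast and 6.78 in innate lymphoid cells. Atp6v1b2, the broadly expressed form of the B subunit, which with the A subunit forms the ATP-splitting head, read 8.17, 8.02 and 7.91 in the same order. Its other probe set read 6.62, 6.62 and 6.51. Both probe sets put innate lymphoid cells lowest, by 0.25 log2 or less from progenitors. The kidney form Atp6v1b1 read 6.55 on each array, and the catalytic A subunit gene Atp6v1a read 6.58 in mature mast cells and 6.39 on the other arrays.

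Atp6v1d, for the D subunit of the rotor, read 6.01 in progenitors, 6.86 in mature mast and 6.30 in innate lymphoid cells. It was highest in mature mast cells, by at least 1.46-fold over progenitors, whose value lay below the median. Atp6v1f read 7.31 in progenitors and 7.02 on both other arrays. Its genomic neighbour Atp6v1fnb, which the symbol rule also takes in, read 6.97 in progenitors, 6.16 in mature mast and 6.09 in innate lymphoid cells. Both neighbours were thus highest in progenitors, Atp6v1fnb by at least 1.59-fold over mature mast cells and at least 1.58-fold over the lymphoid population. The remaining 5 genes of the V1 domain had exactly equal values on the 3 arrays. These were both forms of the stator subunit C (Atp6v1c1 at 4.31 and Atp6v1c2 at 6.78), both forms of the stalk subunit E (Atp6v1e1 at 6.10 and the testis form Atp6v1e2 at 7.72) and the regulatory subunit H (Atp6v1h at 5.42). Atp6v1c1, Atp6v1e1 and Atp6v1h lay below the median on every array, so their equal readings do not show equal expression.

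**Figure D1:**
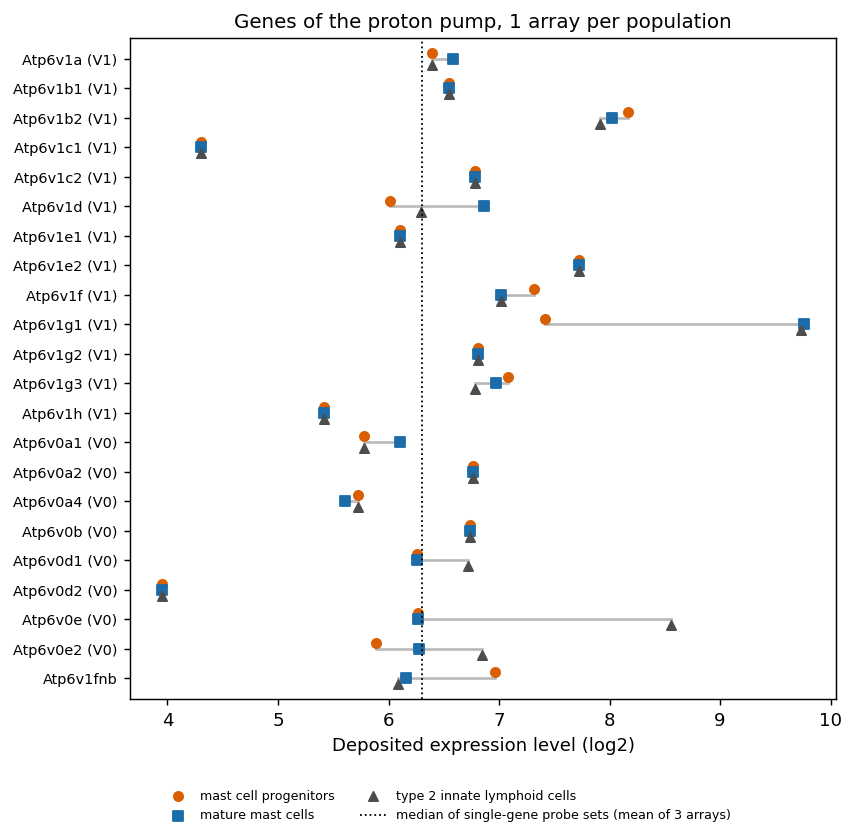
Deposited log2 levels of the 22 pump genes, 1 point per array, with V1 subunit genes above V0 subunit genes and Atp6v1fnb last. The horizontal axis is the log2 level, the grey line joins the lowest and highest array, and the dotted line marks the mean of the 3 array medians. Atp6v1g1 is set apart by its progenitor point at 7.41 and Atp6v0e by its innate lymphoid point at 8.56, while 10 genes have coincident points.

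In the V0 domain, 8 genes were measured, and Atp6v0c, for the main subunit of the proton ring, was not analysed here. Atp6v0e, for the small e subunit of the membrane sector, read 6.27 in both mast cell populations and 8.56 in innate lymphoid cells. The innate lymphoid array alone was high, with the mast cell arrays equal and just under their medians. Its paralogue Atp6v0e2, known from brain, read 5.89 in progenitors, 6.28 in mature mast and 6.84 in innate lymphoid cells. Innate lymphoid cells were highest again, by at least 1.44-fold over progenitors and at least 1.46-fold over mature mast cells, whose values lay below their medians. Atp6v0d1, the broadly expressed form of the d subunit that joins the proton ring to the rotor, read 6.26 in both mast cell populations and 6.72 in innate lymphoid cells. These 3 V0 genes, grouped with their values known, each had their highest value in innate lymphoid cells. The other V0 genes, given next, did not read highest there alone.

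The osteoclast form Atp6v0d2 read 3.95 on each array, and Atp6v0b, a subunit of the proton-carrying ring, read 6.74 on each. The a subunit anchors the pump to a given membrane. Of its forms, Atp6v0a1 read 6.10 in mature mast cells and 5.78 on the other arrays, Atp6v0a2 read 6.76 throughout, and the kidney form Atp6v0a4 read 5.60 in mature mast cells and 5.72 on the others. Atp6v0d2, Atp6v0a1 and Atp6v0a4 lay below the median on every array, where close readings do not show close expression. Tcirg1, which encodes the a3 form found in lysosomes and osteoclasts and does not carry the Atp6v name, read 6.59 in mature mast cells and 6.92 on the other arrays.

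**Figure D2:**
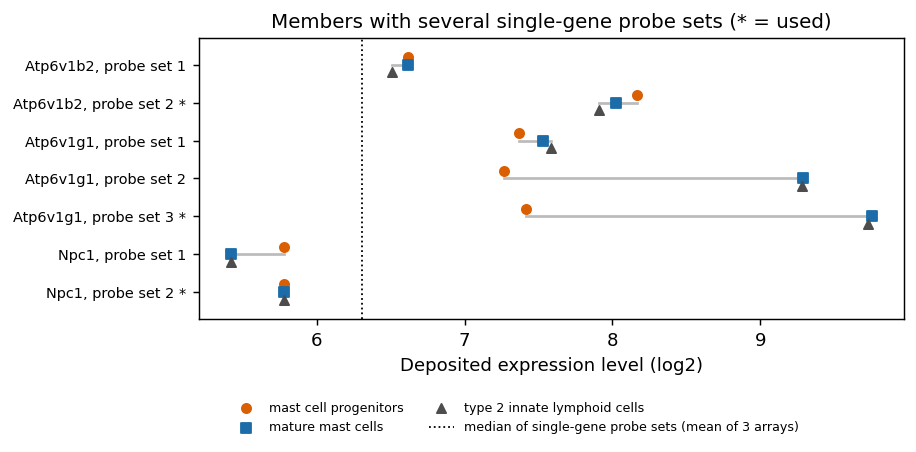
Deposited log2 levels of each single-gene probe set of the 3 members that have several, with 1 point per array and the log2 level on the horizontal axis. The asterisk marks the probe set with the highest mean, which represents the gene, and the dotted line marks the mean of the 3 array medians. For Atp6v1g1 the progenitor points of probe sets 2 and 3 lie at 7.26 and 7.41, well below the other arrays, and those of probe set 1 lie between 7.37 and 7.58.

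Among the soluble hydrolases none of the 18 reached 2-fold in any comparison on the deposited values, and 11 had exactly equal values on all arrays. The largest difference was that of Tpp1, tripeptidyl peptidase, a serine protease that trims peptides from their amino end. It read 7.62 in mature mast cells and 6.63 on both other arrays, 1.98-fold higher and just under the limit. With the arrays set to a common median the difference from progenitors was 1.01 log2, past the limit, and the count of members at least 2-fold higher there rose from 2 to 3. Ctsd, the aspartic protease cathepsin D, read 7.36 in progenitors, 7.86 in mature mast and 7.06 in innate lymphoid cells. Man2b1, the acid α-mannosidase, read 7.20, 7.56 and 6.92 in the same order. Hexa, the α chain of β-hexosaminidase, whose release is the usual measure of mast cell degranulation, read 6.47 in mature mast cells and 6.21 on the others. These 4 genes all had their highest value in mature mast cells, with log2 differences from progenitors of 0.26 to 0.99. A common median and quantile normalization left this direction as it was, but they could hardly change it. The array medians lay between 6.30 and 6.32, and both settings moved these differences little. The 4 genes were also grouped with their values known, so the kept direction adds no support.

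The cysteine cathepsins showed little contrast. Ctsc, the cathepsin C that activates granule proteases, read 5.81 on each array, below the median of each. Ctsb read 6.55, Ctsl 6.97, Ctsh 6.27 and Ctss 5.15, each the same on the 3 arrays, and Ctsz read 7.39 in both mast cell populations and 7.51 in innate lymphoid cells. Lgmn, the asparaginyl endopeptidase that processes cathepsins, read 6.08 throughout. Ctsa, a carboxypeptidase that protects β-galactosidase and neuraminidase, read 5.70, and its partner Neu1 6.64. Of the glycosidases and lipid hydrolases, Gaa (acid α-glucosidase, 6.89), Gusb (β-glucuronidase, 6.10) and Lipa (acid lipase, 6.42) were also equal on all arrays. Gla (α-galactosidase A) read 5.35 in both mast cell populations and 5.23 in innate lymphoid cells, and Asah1 (acid ceramidase) read between 4.38 and 4.39. Gla, Asah1, Ctsa, Ctsc, Ctsh, Ctss, Gusb and Lgmn lay below the median on every array, where background shrinks differences, so equal readings there do not show equal expression. Exact ties above the median do not show it either, since ties were common among all genes.

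Psap, the precursor of the saposins, which present lipids to hydrolases, read 6.68 in progenitors, 8.22 in mature mast and 6.66 in innate lymphoid cells. Mature mast cells alone were high, by 2.91-fold over progenitors and 2.95-fold over innate lymphoid cells, and progenitors and innate lymphoid cells lay within 0.02 log2 of each other. Grn, the precursor of granulins, which regulate lysosomal function, read 7.65 in progenitors, 7.82 in mature mast and 7.84 in innate lymphoid cells. Npc2, which hands cholesterol to Npc1, read 6.37 in both mast cell populations and 6.25 in innate lymphoid cells. Of these soluble proteins Psap alone exceeded a log2 difference of 0.2.

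Membrane proteins and sorting receptors did not reach 2-fold in any comparison. Lamp1 and Lamp2, glycoproteins of the lysosomal membrane, read 6.46 and 6.31 on each array, and Scarb2, the receptor that carries glucocerebrosidase, read 5.86 on each. Npc1, the cholesterol exporter, read 5.78 on each by the probe set used, while its other probe set read 5.78 in progenitors and 5.42 on both other arrays. Scarb2 and Npc1 lay below the median on every array, so their equal readings do not show equal expression. Cd68, a lysosomal glycoprotein of phagocytes, read 6.86 in progenitors and 6.66 on both other arrays. M6pr, the cation-dependent mannose 6-phosphate receptor, read 6.57 in both mast cell populations and 6.83 in innate lymphoid cells, and Igf2r, the cation-independent receptor, read 6.32 on each array.

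**Figure D3:**
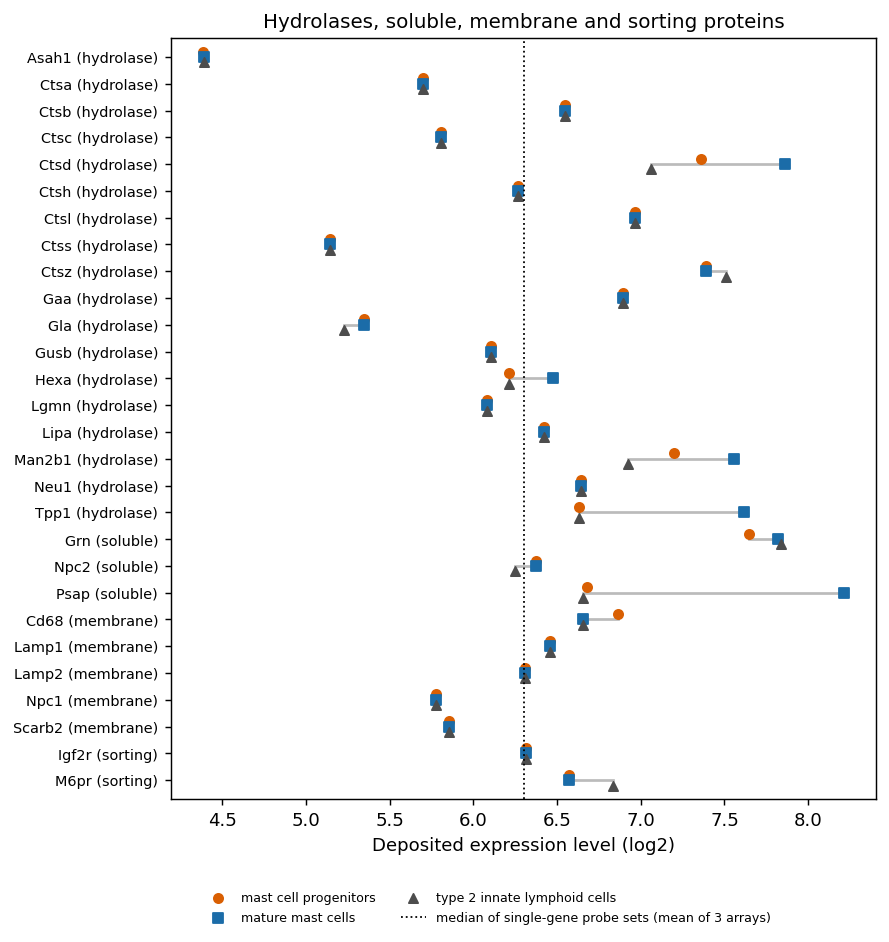
Deposited log2 levels of the 28 measured members outside the pump, 1 point per array, ordered as hydrolases, other soluble proteins, membrane proteins and sorting receptors. The horizontal axis is the log2 level and the dotted line marks the mean of the 3 array medians. Psap at 8.22 and Tpp1 at 7.62 in mature mast cells stand to the right of their other points, and most genes have coincident points.

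Counted over all 50 members, 2 were at least 2-fold higher in mature mast cells than in progenitors (Psap and Atp6v1g1) and 0 lower, where 1.93% of all genes were higher and 0.509% lower. At 4-fold the count was 1 higher and 0 lower, against 0.834% and 0.113%. At a limit of 1.5-fold it was 4 higher (Tpp1 and Atp6v1d being added) and 1 lower (Atp6v1fnb), against 3% and 1.36%. Between progenitors and innate lymphoid cells, 0 members were at least 2-fold higher in progenitors and 2 lower (Atp6v1g1 and Atp6v0e), where all genes gave 0.766% and 1.88%. Both passed 4-fold, where 0.888% of all genes were lower and 0.207% higher. At 1.5-fold 1 member was higher in progenitors (Atp6v1fnb) and 3 lower (Atp6v0e2 being added), against 1.55% and 3.07%. Between mature mast cells and innate lymphoid cells, 1 member was at least 2-fold higher (Psap) and 1 at least 2-fold lower (Atp6v0e), where all genes gave 1.34% and 1.26%. Atp6v0e was also the 1 member at least 4-fold lower there, against 0.401% of all genes, and 0 were 4-fold higher, against 0.573%. At 1.5-fold 4 members were higher in mature mast cells (Psap, Tpp1, Ctsd and Man2b1) and 1 lower, against 2.28% and 2.36%. The comparisons share arrays, so each of the 3 genes counts in 2 of them. Counts of 0 to 4 in a list of 50 are too few to be read as particular to lysosomal genes.

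Exact ties made up most of the comparison. Of the 50 members 26 had the same value, to the 5 decimals deposited, on all 3 arrays, 14 on 2 arrays and 10 on none. Among all genes the shares were 47.9%, 32.2% and 19.9%, against 52%, 28% and 20% of the members. With ties this common, an exactly equal reading does not show equal expression, in members above the median as in those below it. The hydrolases had 11 of 18 members equal on all arrays, the pump 10 of 22 and the remaining members 5 of 10. Median differences of each role were therefore 0 in each comparison, as they were for all genes. Between mature mast cells and progenitors 12 members read higher in mature cells, 6 lower and 32 the same, where 12.6% of all genes read higher and 29.2% lower. Of the 18 hydrolases 5 read higher and 0 lower, Asah1 by 0.01 log2 only. The pump had 5 of 22 in each direction, with the neighbour gene Atp6v1fnb among those lower. With innate lymphoid cells as the reference, 14 members read higher and 7 lower in mature mast cells, against 16.3% and 23.1% of all genes. Tied genes take a sign under other scalings of the arrays, by up to 0.0263 log2 in the medians of the roles, so these counts of sign describe the values as deposited.

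Members were spread over the range of levels. Those above the array's median numbered 27 in progenitors and 30 in each of the other populations. Of all genes 50.4% lay above it in progenitors and 50.6% in each of the other populations. The members above it on no array were 16 of 50, against 46.2% of all genes. A log2 level of 8 or more was reached by Atp6v1b2 in progenitors, by Psap, Atp6v1g1 and Atp6v1b2 in mature mast cells, and by Atp6v1g1 and Atp6v0e in the lymphoid population. Of all genes 2.79%, 3.55% and 3.66% reached it in the same order, and nothing particular to the members is read from so few.

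A further 124 lysosomal genes outside the set were listed by role, of which 115 were measured. In mature mast cells against progenitors 3 of the 115 were at least 2-fold higher and 0 lower. Progenitors against innate lymphoid cells gave 1 higher and 2 lower, and mature mast cells against innate lymphoid cells 3 higher and 1 lower. Over all genes the shares were 1.93% and 0.509%, 0.766% and 1.88%, and 1.34% and 1.26% in the same order, and nothing particular to these lysosomal genes is read from counts of 0 to 3. Of the 33 further hydrolases and activators none reached 2-fold. Ctse, the aspartic protease cathepsin E, known to process mast cell carboxypeptidase, came nearest, at 7.30 in progenitors, 8.24 in mature mast and 7.58 in innate lymphoid cells. Fuca1, the α-fucosidase, read 6.82, 7.61 and 7.06 in that order.

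The 34 membrane proteins and transporters held the 3 genes that passed 4-fold. At that limit 1 of them was higher and 0 lower in mature mast cells than in progenitors, against 0.834% and 0.113% of all genes. Progenitors against innate lymphoid cells gave 1 higher and 1 lower, against 0.207% and 0.888%. Mature mast cells against innate lymphoid cells gave 2 higher and 1 lower, against 0.573% and 0.401%. Nothing particular to this role is read from so few. Cd63, a tetraspanin of granule and lysosome membranes, read 10.29 in progenitors, 10.54 in mature mast and 7.24 in innate lymphoid cells. Mfsd1, a lysosomal transporter, read 6.83, 9.04 and 6.42 in the same order. It was high in mature mast cells alone, by 4.63-fold over progenitors and 6.15-fold over innate lymphoid cells. Tmem192, a protein of the lysosomal membrane, read 5.62 in progenitors, 5.79 in mature mast and 8.06 in innate lymphoid cells. Its measured differences passed 4-fold, and over the median the bound is at least 3.35-fold.

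Of 11 pump-associated genes outside the Atp6v name, Rnasek, whose product binds the pump, alone reached 2-fold. It read 6.70 in progenitors, 8.22 in mature mast and 8.60 in innate lymphoid cells, low in progenitors as Atp6v1g1 was by 2 of its probe sets. The accessory genes Atp6ap1 and Atp6ap2 read 6.72 and 4.97 on each array. Among 19 genes of sorting and fusion, Vps26a, a subunit of the retromer that returns sorting receptors to the Golgi, read 6.92, 8.29 and 7.04 and alone reached 2-fold, higher in mature mast cells than in both other populations. None of the 18 genes of TFEB-family factors and lysosomal nutrient signalling reached 2-fold.

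**Figure D4:**
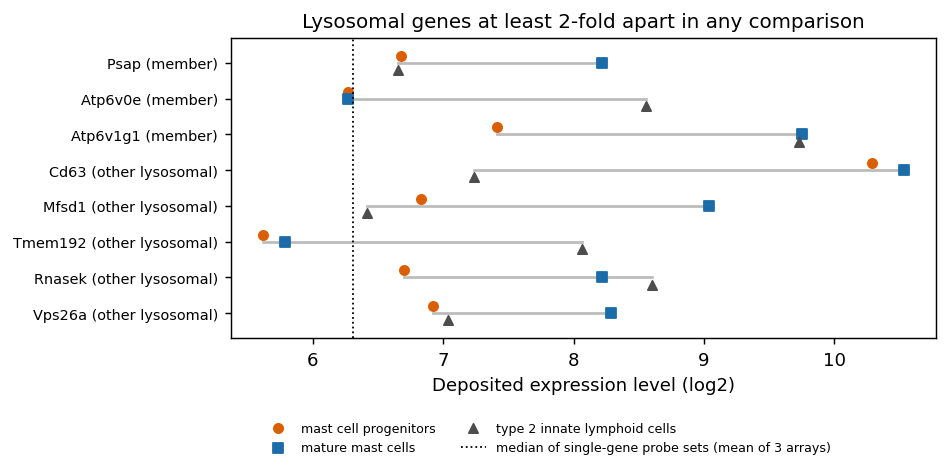
Deposited log2 levels of the 3 members and 5 other lysosomal genes that differed by at least 2-fold in any comparison, 1 point per array, with the log2 level on the horizontal axis. Psap, Mfsd1 and Vps26a are high in mature mast cells alone, Atp6v0e and Tmem192 in innate lymphoid cells alone, Cd63 in both mast cell populations, and Atp6v1g1 and Rnasek are low in progenitors.

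Marker genes were read beside these values. Of 12 mast cell markers 9 lay above the median in progenitors, 12 in mature mast and 5 in innate lymphoid cells. Those below it in progenitors were Fcer1a at 5.37, Ms4a2 at 6.25 and Hdc at 5.59, the first 2 of which encode chains of the FcεRI of the gate. Kit, although both mast cell populations were gated c-kit high, read 6.89 in progenitors, 10.29 in mature mast and 6.63 in innate lymphoid cells. Of 13 innate lymphoid markers 3 (Il7r, Klrg1 and Arg1) had measured values at least 4-fold higher on the innate lymphoid array than on both others. Il7r and Klrg1 lay below the median on both mast cell arrays, so their folds over the median are smaller. Il2ra, Gata3, Icos, Id2 and Il5 were highest there by under 2-fold, and Rora, Thy1 and Il17rb were equal on all arrays. Il13 (7.65 against 7.41) and Ccr8 (5.82 against 5.77) were highest in progenitors. The 20 measured macrophage markers summed on the linear scale to 1935 in progenitors, against 1820 in mature and 1818 in innate lymphoid cells, with 12, 12 and 11 of them above the median. None of the 69 measured markers of 9 other cell types differed by 2-fold in any comparison, and the sum of each list varied by at most 1.17-fold between arrays. Above the median lay 40 of the 69 in progenitors, 40 in mature mast and 39 in innate lymphoid cells. A reading above the median is thus no proof of expression, and near-constant sums do not show that other cells were absent. Folds from values just above the median, as for Psap and Tpp1, may also be too small. The part of other cells in the Psap value was not tested.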

How the data were processed

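The values are the log2 expression levels of 41345 probe sets that the authors deposited, made with RMA, according to the submitters' processing notes, with no version named. RMA removes background, brings arrays to one distribution and condenses each probe set by median polish, a step that works with medians and can return exactly equal values. That values are log2 follows from their range, 2.23 to 13.7. Probe-level signals and detection calls were not used here, and the array's genome build is not given in the sources used here. Gene names came from the platform annotation, in which 23521 probe sets had 1 gene, 1814 had several and 16010 were unnamed. A gene was represented by its single-gene probe set of highest mean over the 3 arrays. Entrez identifiers of all 50 measured members matched RefSeq's GRCm38.p6 table. Differences were taken between arrays with Python 3.11.15 and pandas 2.3.3, and no test was run. The counting rule was run on simulated levels without ties, with shifts past the 4-fold limit in genes above the median. That checks the code alone, not how the rule serves tied or dim genes. Members, lists and limits were chosen with earlier results of these data known. Named genes were the members at least 2-fold apart, up to 3 members of highest mean in each role, those with several probe sets, and isoforms of such subunits, and the remaining members were described after their values were seen. From the further lists the rule took genes at least 4-fold apart or the 3 largest differences of a list, and those printed were picked with their values known.

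Alternatives were to drop the floor, to raise it to the 75th percentile, a common median, quantile normalization, the mean of a gene's probe sets, its probe set of largest range, and probe sets naming several genes. A limit of 1.5-fold was added after the data were examined.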

Additional observations from a re-analysis of the deposited data

How the results depend on the processing

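Counts of members kept within 1.5 times of the values given, and medians within 0.25 log2, in 129 of 135 repeats under other settings. Many of these repeats had little room to move, so their number is no measure of stability. The medians are 0 through ties, several counts are 0, and a change from 2 to 3 is taken as kept. Settings on the choice of probe sets alter only members with more than 1 probe set or a shared one. With the mean of a gene's probe sets, the 4-fold counts became 0 (higher in mature mast cells than in progenitors) and 1 (lower in progenitors than in innate lymphoid cells), since Atp6v1g1 then differed by 1.51 and -1.52 log2. By its discordant probe set alone Atp6v1g1 differed by 0.16 and -0.21. With the arrays set to a common median, Tpp1 passed 2-fold at 1.01 log2, and 3 members in place of 2 were higher in mature mast cells than in progenitors. A limit of 1.5-fold, added after the data were examined, gave 4 members higher and 1 lower in mature mast cells than in progenitors, 1 higher in progenitors than in innate lymphoid cells, and 4 higher in mature mast cells than in innate lymphoid cells. No paired analysis was possible because each population has 1 array. Equal values limit what can be seen of members at any level, and the absence of detection calls limits it further for dim ones.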
